A study of Saccharomyces cerevisiae with 14 samples.

Results

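The 3 RNASeq libraries of oe LHS1, the chaperone-enriched strain (ChES) that overexpresses (oe) the endoplasmic reticulum (ER) chaperone gene LHS1, were set against the 8 libraries of the other ChES. These 8 are 3 libraries labelled oe SSC1, 2 of oe EGD2 and 3 of oe TCP1, which makes 11 libraries in the table in all, and every gene measured in them was compared. All strains derive from Saccharomyces cerevisiae Y258, a relative of S288C, and carry the chaperone gene on a plasmid with the URA3 marker, selected in medium without uracil. The labels give exponential cultures in 2% glucose for all groups, whereas the methods of the study describe induction from the plasmid with 2% galactose and harvest after the diauxic shift, so the carbon source and growth phase at harvest are not settled by these sources. The 3 libraries of the empty vector control are not analysed here, and every difference below is therefore between ChES. Values are read counts per gene divided by a size factor for each library (normalized counts), and 6592 genes with a mean of at least 5 over the 11 libraries were tested. The study describes biological triplicates and the filtering of outlier replicates before its tests. The p-values therefore measure the spread between the libraries that were kept.

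Lhs1 is a large Hsp70-related protein of the ER lumen. It works with Kar2, the yeast BiP and main Hsp70 of that compartment, as a nucleotide exchange factor that helps Kar2 release its substrates, a role it shares with Sil1. Kar2, with the J proteins Sec63, Scj1, Jem1 and Erj5, pulls nascent proteins through the Sec61 translocon and folds them. When unfolded proteins build up in the ER, the sensor Ire1 splices the HAC1 mRNA, and the Hac1 protein then activates KAR2, LHS1 and many other ER genes, which is called the unfolded protein response (UPR). The strains set against oe LHS1 carry chaperones of other compartments. Ssc1 is the mitochondrial Hsp70, Egd2 the alpha part of NAC, a complex that meets new proteins at the ribosome, and Tcp1 a subunit of the cytosolic CCT chaperonin.

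LHS1 (YKL073W) was 27.0-fold higher in oe LHS1 than in the other strains and was the only gene that differed past the threshold. Its normalized count was 23647 in replicate 1, 56679 in replicate 2 and 60337 in replicate 3 of oe LHS1. In the 8 other libraries it ranged from 1344 to 2211, with a median of 1677. The groups did not overlap, and the lowest oe LHS1 library stood 10.7-fold above the highest of the others. The means were 46888 ± 20210 (SD, n = 3) and 1734 ± 325 (SD, n = 8). An exact two-sided permutation test of 3 against 8 libraries gave p = 0.0121, the smallest this design allows. With limma (log2 of the normalized count plus 1, 4 strains in one fit, Benjamini-Hochberg adjustment over 6592 genes), the log2 difference between oe LHS1 and the mean of the other 3 strains was 4.66 ± 0.32 (SE), with an adjusted p of 0.000272. LHS1 took 0.190% of all reads in replicate 1 and 0.438% and 0.470% in replicates 2 and 3, against 0.00943% to 0.0162% in the other libraries. A higher level in each cell and a larger share of cells that carry the plasmid cannot be told apart in such bulk samples.

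The reading frame of LHS1 lies on chromosome XI of the R64 assembly (the assembly also called sacCer3), from 296430 to 299075 on the plus strand, and holds 2646 bases, which is 881 codons without the stop. Its first 90 bases are shown, with the start codon in capitals, because the count of this gene as a whole marks the strain. They were read from the RefSeq R64 genome, and the insert of the plasmid itself was not sequenced here.
LHS1, chrXI:296430-296519, plus strand: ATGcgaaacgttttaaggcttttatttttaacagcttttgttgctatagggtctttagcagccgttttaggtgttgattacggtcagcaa
The genes on both sides, which are not on the list of overexpressed genes, give a local reference. STB6 (YKL072W), downstream on the same strand, had 1243, 607 and 664 normalized counts in oe LHS1 replicates 1 to 3 and 738 to 1447 in the others. MUD2 (YKL074C), upstream on the other strand, had 1454, 1077 and 1195 in oe LHS1 and 814 to 1488 in the others. For both genes the groups overlapped. URA3, the plasmid marker, stood at 174700, 249072 and 257265 in oe LHS1 and between 113922 and 367819 in the others, and also overlapped. The ratio of LHS1 to URA3 was 0.135, 0.228 and 0.235 in the oe LHS1 libraries and 0.00569 to 0.0151 elsewhere. The library with the lowest LHS1 count also had the lowest URA3 count of the 3.

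Against the other strains together, 1 of 6592 genes (0.0152%) passed an adjusted p of 0.05, and it was LHS1. No gene was lower past the threshold. At an unadjusted p under 0.05, limma gave 158 higher genes (2.4%) and 85 lower genes (1.29%), edgeR 226 and 115, and DESeq2 225 and 273. With the libraries scaled to equal totals in place of size factors, these counts were 197 and 37 with limma. They depended on single libraries, with 581 and 647 when oe TCP1 replicate 3 was left out and 46 and 24 without oe EGD2 replicate 2. The gene next to LHS1 in the order of p-values was TCP1, overexpressed in 1 of the compared strains, at an adjusted p of 0.677. The depth was 13991742, 11199213 and 10357513 reads for oe LHS1 replicates 1 to 3, within the 10127206 to 20286329 of the whole table.

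**Figure D1:**
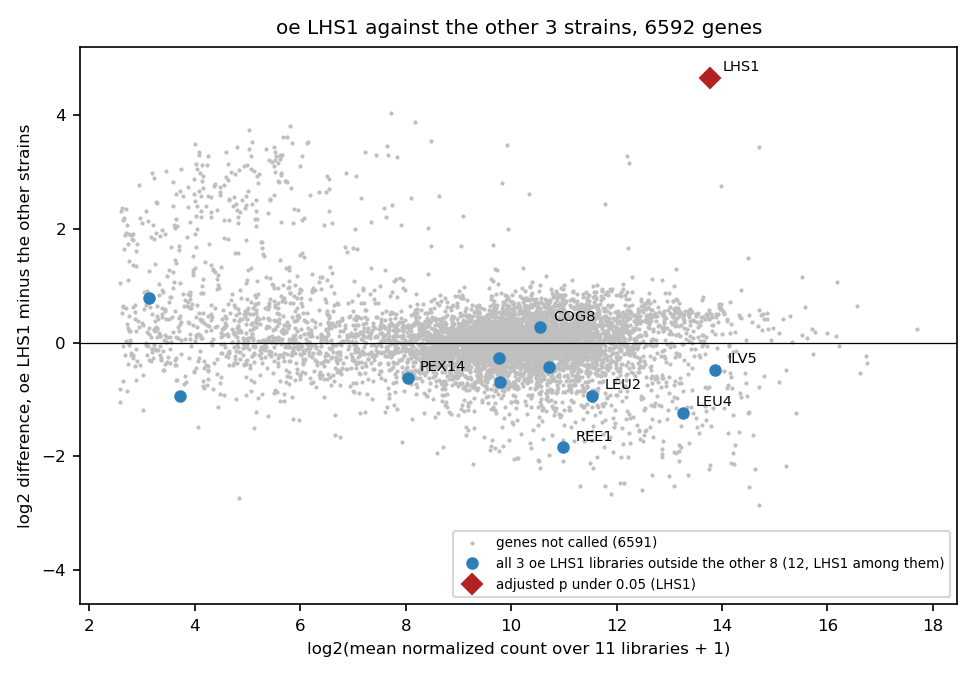
Each point is a gene, with the log2 of its mean normalized count plus 1 over 11 libraries on the x axis and the log2 difference between oe LHS1 and the mean of the other 3 strains on the y axis. LHS1 stands alone at 4.66. The blue points are the genes whose 3 oe LHS1 values all lie outside the range of the 8 other libraries, and the cloud above 2 at low counts holds mostly tRNA genes.

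The 3 oe LHS1 libraries were not alike. Replicates 2 and 3 had a Pearson correlation across genes of 0.993 (log2 values) and a median absolute log2 difference of 0.121, and 90 genes differed more than 2-fold. Replicate 1 correlated with them at 0.906 and 0.905, with 1218 and 1289 genes more than 2-fold apart. Genes are not independent replicates, so these correlations only describe the libraries. Replicate 1 was closest to replicate 1 of the strain labelled oe SSC1 (0.990, 131 genes more than 2-fold apart), followed by replicate 1 of oe EGD2 (0.986) and of oe TCP1 (0.983). On the first principal component, which held 57.2% of the variance, replicates 2 and 3 of oe LHS1 stood at the far end (-61.9 and -61.2) and replicate 1 at 10.7, between the other libraries at -45.4 to 58.2. Replicates 2 and 3 were not copies of the same library, because a chi-square of their reads over genes averaged 12.1 per gene, where sampling noise gives about 1. LHS1 separated all 3 from the 8 others. Most list medians below differed in size, and several in sign, between replicate 1 and the other 2 replicates, and most are given with and without it.

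KAR2 and the rest of the ER Hsp70 system had log2 differences above 0 against the mean of the other strains. Only LHS1 itself passed the threshold, and in all the other members the groups overlapped. KAR2 (YJL034W) stood at 26889, 33012 and 31153 normalized counts in oe LHS1 replicates 1 to 3. It was 22330, 111763 and 15007 in replicates 1 to 3 labelled oe SSC1, 24725 and 26391 in oe EGD2, and 19479, 26767 and 13268 in oe TCP1. All 3 oe LHS1 values lay above 7 of the 8 others, by a narrow margin for replicate 1, and below replicate 2 of the strain labelled oe SSC1. The log2 difference was 0.25 ± 0.59 (SE, adjusted p 0.865, limma), and 0.54 without that library (adjusted p 0.563). The arithmetic mean of KAR2 was 30352 in oe LHS1 and 32466 in the 8 others, which include that library. That library also had the highest summed count of the list of cytosolic chaperones and heat shock genes, 2204710 against 176837 to 723993 in the 10 others, and the part of this in its KAR2 value was not tested.

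SIL1, the other exchange factor of Kar2, had 1302, 1526 and 1813 normalized counts in oe LHS1 and 756 to 1455 in the others, with a median of 1050. Only oe EGD2 replicate 1 and oe TCP1 replicate 3 stood above the lowest oe LHS1 library. The log2 difference was 0.53 ± 0.24 (SE, unadjusted p 0.0486, adjusted p 0.677), and 0.65 without oe LHS1 replicate 1. SEC63, the J protein of the translocon, had 3009, 4036 and 4335 in oe LHS1 and 1868 to 4993 in the others. SCJ1 and JEM1, J proteins of the lumen, had 1588, 1875 and 1718 (SCJ1) and 814, 1215 and 1292 (JEM1), against 945 to 1993 and 750 to 1141. For JEM1 replicates 2 and 3 lay above all 8 others and replicate 1 in the middle of them. ERJ5, the remaining J protein of the list, had 1046, 997 and 993 against 671 to 1222. All 7 members of this list had a log2 difference above 0, as did 3377 of the 6592 genes tested. The median was 0.38, beside 0.01 over all genes tested. LHS1, which is overexpressed by design, is counted in these values and in the medians that follow. The remaining members ran from 0.11 (ERJ5) to 0.53 (SIL1). The median was 0.53 without oe LHS1 replicate 1 and 0.45 without the libraries labelled oe SSC1. LHS1 was the only member past the adjusted threshold, and SIL1 the only other at an unadjusted p under 0.05, where 2.4% of all genes were higher.

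**Figure D2:**
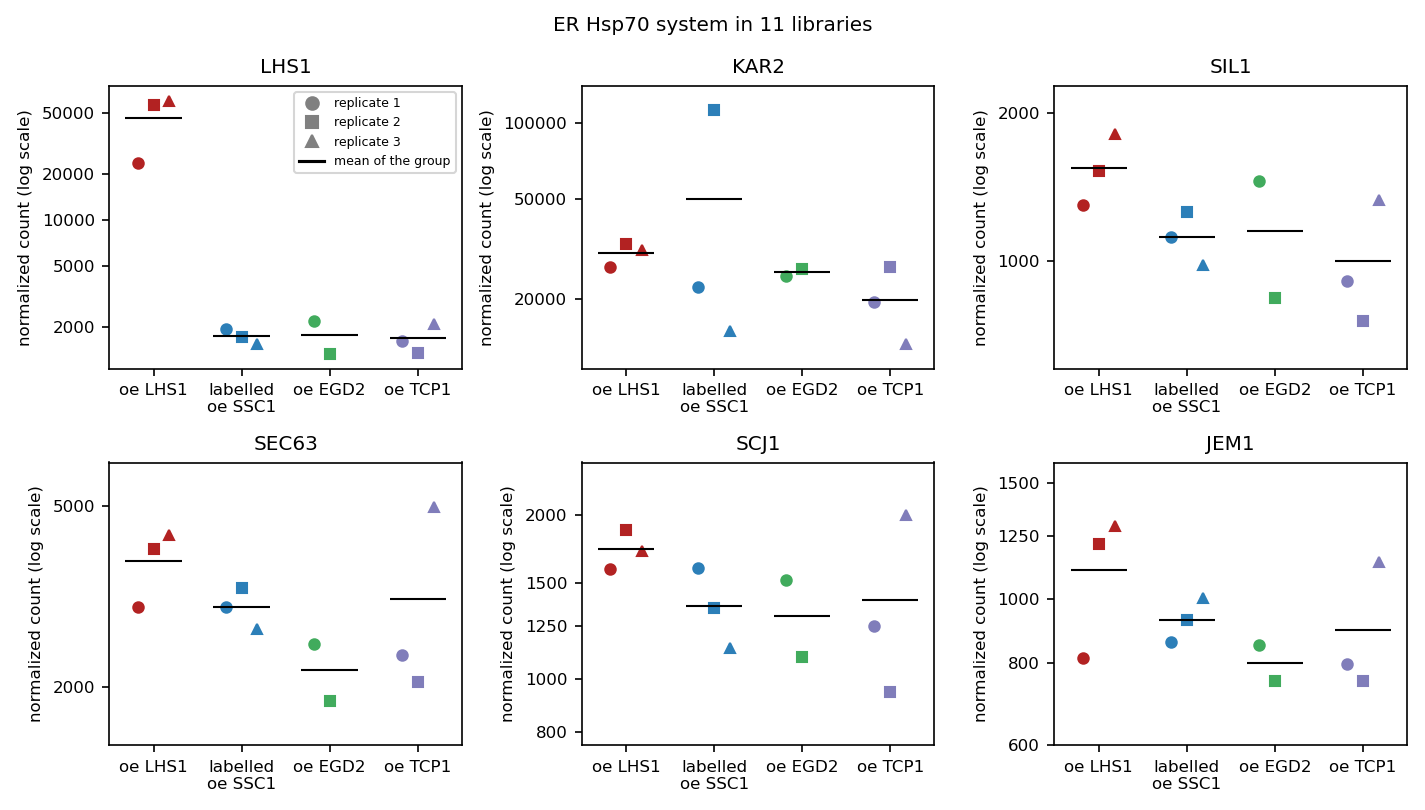
Normalized counts on a log axis for 6 genes of the ER Hsp70 system, with 1 point per library, shaped by replicate number, and a bar at the arithmetic mean of each group. LHS1 separates oe LHS1 from all others by at least 10.7-fold, while in KAR2, SIL1, SEC63, SCJ1 and JEM1 the groups overlap.

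The stretches upstream of LHS1 and KAR2 that hold the core letters of the UPR element, the site known for Hac1, are shown because these 2 genes are the partners whose levels are compared here. The motif searched was CAGCGTG, on both strands, in the 500 bases before each start codon in R64. It was found upstream of 138 of 5989 genes (2.3%), and among the 7 genes of the list upstream of LHS1, KAR2 and ERJ5. The match is in capitals, and in LHS1 and ERJ5 it lies on the opposite strand. A match is a description of letters and not of a bound site.
LHS1, chrXI:296306-296362, plus strand: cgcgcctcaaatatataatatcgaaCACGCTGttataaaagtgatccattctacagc
KAR2, chrX:381142-381198, plus strand: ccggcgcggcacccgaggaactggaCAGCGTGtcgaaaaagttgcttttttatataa
ERJ5, chrVI:238699-238755, minus strand: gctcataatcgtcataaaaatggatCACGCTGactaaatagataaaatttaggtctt
SIL1 and SEC63 have no such match in this window.

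The lists of ER oxidative folding and of UPR signalling and ERAD had medians near that of all genes, with single members farther off. HAC1, whose total mRNA is measured here without regard to splicing, had 7917, 9111 and 7325 normalized counts in oe LHS1 and 4701 to 8966 in the others. IRE1, the sensor, had 1381, 1400 and 1589 against 1164 to 2104. PDI1, the protein disulphide isomerase and a known UPR target, had 10309, 9823 and 9800 against 6242 to 12520, and ERO1, its oxidase, 5323, 3956 and 4089 against 2351 to 9821. None of these 4 passed the threshold, and in each the groups overlapped, with log2 differences of 0.30 (HAC1), 0.04 (IRE1), 0.12 (PDI1) and 0.40 (ERO1). In the list of ER oxidative folding, 7 of 12 members had a log2 difference above 0, with a median of 0.11, and none had an unadjusted p under 0.05. In UPR signalling and ERAD, the removal of ER proteins for degradation, 8 of 19 lay above 0, with a median of -0.06. HRD1, the ubiquitin ligase of ERAD, had 1328, 3674 and 3633 against 769 to 3410, with replicates 2 and 3 above all others and replicate 1 below their median (log2 difference 0.76, adjusted p 0.677, limma). Without replicate 1 the medians of these lists were 0.14 and -0.06.

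Genes of protein entry into the ER had a median log2 difference of 0.30, with 18 of 20 members of the translocon and SRP list above 0. SEC61, the channel itself, had 3670, 4623 and 4483 normalized counts in oe LHS1 and 2464 to 4221 in the others. SBH1, a small subunit of that channel, had 1545, 1930 and 2059 against 928 to 1725. In both genes replicates 2 and 3 stood above every other library and replicate 1 did not. Without replicate 1 the median of this list was 0.47. It was 0.24 without the libraries labelled oe SSC1, and no member passed the adjusted threshold in either case. By strain the median was 0.32 against the libraries labelled oe SSC1, 0.34 against oe EGD2 and 0.13 against oe TCP1.

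The glycosylation and vesicle lists had smaller medians. In O-mannosylation 17 of 20 members lay above 0 with a median of 0.20, or 0.26 without replicate 1. PMT1 and PMT2, subunits of the main protein O-mannosyltransferase, had 3550, 3933 and 4172 (PMT1) and 5807, 7178 and 7580 (PMT2) normalized counts in oe LHS1, against 2698 to 3817 and 3257 to 7321 in the others. For PMT1 replicates 2 and 3 lay above all 8 others, and replicate 1 above all but oe TCP1 replicate 3. N-glycosylation had a median of 0.13 (0.22 without replicate 1) with 21 of 28 above 0, and the COPII list 0.13 (0.17 without it) with 17 of 24. In oe TCP1 replicate 3 the list medians, centred on each gene's mean over 11 libraries, were at least as high as in any oe LHS1 library for the translocon (0.65 against -0.10 to 0.39), N-glycosylation (0.33 against -0.07 to 0.16), O-mannosylation (0.47 against -0.05 to 0.20) and COPII (0.33 against -0.03 to 0.16) lists. The ER Hsp70 list, in which LHS1 itself is counted, was the exception, with 0.24 in that library and 0.15, 0.39 and 0.47 in oe LHS1.

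Apart from LHS1, 11 genes had all 3 oe LHS1 libraries outside the range of the 8 others, which rests on no model and holds in replicate 1 as well. In total 3 of 6592 genes (0.0455%) lay above and 9 (0.137%) below. With libraries scaled to equal totals, 9 lay above and 4 below. Those above were LHS1, COG8, FPR2, HEM4, LNP1, MSW1, PMT1, YLL044W and YNL033W. The 4 below were LEU2, LEU4, PEX14 and CEF1, all among the 9 below with size factors. ILV5 was not among these 4. None of these genes other than LHS1 passed the adjusted threshold. If all 11 libraries were interchangeable, the 3 would lie wholly outside the 8, above or below, in a share of 0.0121 of genes. The genes seen here were fewer than that share of the 6592, so they are given as a description only.

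Of the 9 below the range with size factors, LEU2, LEU4 and ILV5 are genes of branched-chain amino acid synthesis. Yeast makes leucine from an intermediate of valine synthesis. Leu4 makes alpha-isopropylmalate, Leu1 and Leu2 convert it further, Ilv5 acts in the shared upper part of the branched-chain pathway, and Oac1 carries alpha-isopropylmalate out of mitochondria. The activator Leu3, which binds alpha-isopropylmalate, is known to act on these genes. LEU2 (YCL018W) had 2084, 1705 and 1537 normalized counts in oe LHS1. It had 2683, 2315 and 2558 in replicates 1 to 3 labelled oe SSC1, 2886 and 5754 in oe EGD2, and 3905, 3618 and 3570 in oe TCP1. The 3 oe LHS1 values were the lowest of the 11, and those labelled oe SSC1 came next. The log2 difference was -0.93 ± 0.23 (SE, unadjusted p 0.0020, adjusted p 0.677), with -1.05 without oe LHS1 replicate 1 and -1.14 without the libraries labelled oe SSC1.

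LEU4 (YNL104C) had 3988, 4451 and 4222 in oe LHS1, a narrow band below the 5025 to 26231 of the others. The others spread over a wide range, from 5025 and 5242 in replicates 2 and 1 of the strain labelled oe SSC1 to 26231 in its replicate 3, and the log2 difference was -1.23 ± 0.57 (SE, unadjusted p 0.0564). ILV5 had 11055, 11373 and 11196 against 11736 to 23580, where oe TCP1 replicate 2 was the closest of the others. OAC1 had 1432, 1609 and 1474, and only oe EGD2 replicate 1 (1514) of the 8 others reached into that range, the rest lying between 1785 and 4149. Its log2 difference was -0.66 ± 0.27 (SE, unadjusted p 0.0332). LEU1, the isopropylmalate isomerase, had 4335 and 4428 in replicates 2 and 3, below all others (5593 to 22229), but 9357 in replicate 1.

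Over 12 genes of the branched-chain pathway, a set written after these values had been seen, 10 had a log2 difference below 0, with a median of -0.38. The other members varied by library. ILV2, the first enzyme of the shared part, had 4672, 7507 and 7208 in oe LHS1 and 4734 to 12697 in the others, BAT1, the mitochondrial aminotransferase, 3964, 5972 and 6634 against 4858 to 13080, and LEU9, the second isopropylmalate synthase, 1235, 3072 and 3101 against 1114 to 4667. For ILV2, BAT1 and LEU9 replicate 1 was the lowest of the oe LHS1 libraries, and for LEU9 the log2 difference was above 0 (0.33). The list of amino acid synthesis as a whole had a median of -0.36 with 40 of 54 below 0, and its only unadjusted p under 0.05 was that of LEU2. Without oe LHS1 replicate 1 this median was -0.12.

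The letters of the Leu3 site, CCGG, any 2 bases and CCGG again, searched in the 500 bases before the start codon (the motif reads the same on both strands), were found upstream of 16 of 5989 genes (0.267%). Of the 12 branched-chain genes, 5 hold it, LEU1, LEU2, ILV2, ILV5 and BAT1. The stretches upstream of LEU2, LEU1 and ILV5, the 3 with such a match whose replicates 2 and 3 lay below all other libraries, and of BAT1, where they did not, are shown with the match in capitals.
LEU2, chrIII:91101-91160, plus strand: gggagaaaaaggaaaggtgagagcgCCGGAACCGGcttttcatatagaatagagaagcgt
LEU1, chrVII:478835-478894, minus strand: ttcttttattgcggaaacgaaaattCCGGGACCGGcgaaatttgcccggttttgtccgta
ILV5, chrXII:839596-839655, minus strand: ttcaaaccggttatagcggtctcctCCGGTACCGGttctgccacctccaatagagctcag
BAT1, chrVIII:517360-517419, plus strand: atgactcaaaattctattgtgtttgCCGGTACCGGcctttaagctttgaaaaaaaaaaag
LEU4 and OAC1 have no exact match to these letters in this window.

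**Figure D3:**
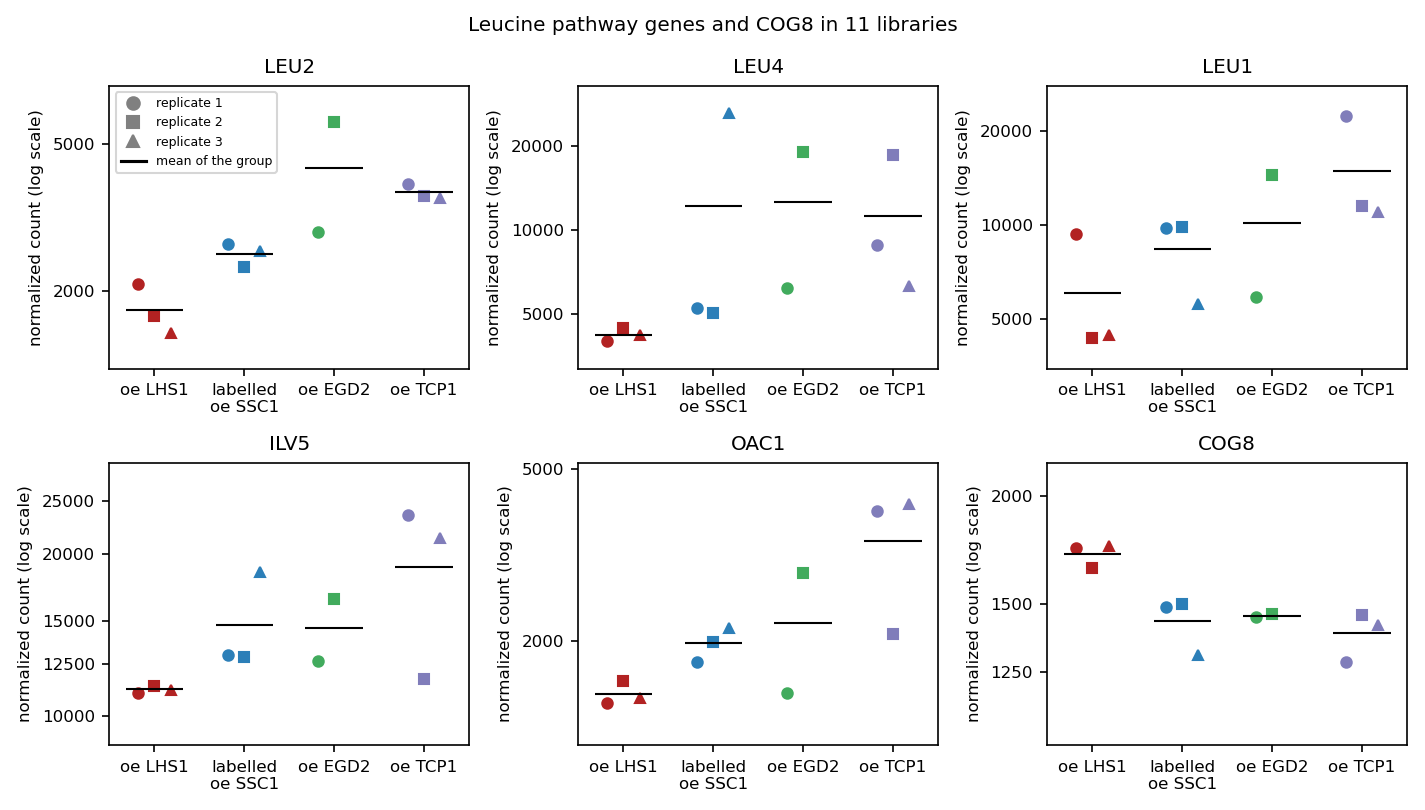
Normalized counts on a log axis for 5 genes of leucine synthesis and for COG8, with 1 point per library, shaped by replicate number, and a bar at the mean of each group. The 3 oe LHS1 points lie below all others for LEU2, LEU4 and ILV5 and above all others for COG8, whereas LEU1 has replicate 1 inside the range and OAC1 overlaps at 1 library.

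The other genes outside the range were of mixed roles. COG8, a subunit of the conserved oligomeric Golgi complex, which tethers vesicles within the Golgi, had 1742, 1649 and 1752 in oe LHS1 and 1283 to 1500 in the others. With size factors it was the only well-measured gene besides LHS1 above the range, whereas scaling to equal totals added others, among them PMT1 and FPR2. Its log2 difference with size factors was 0.27 ± 0.14 (SE, unadjusted p 0.0881, limma). PEX14, part of the docking complex for import into peroxisomes, had 204, 173 and 186 against 234 to 376 (log2 difference -0.62 ± 0.21, SE, unadjusted p 0.0131). HUL5, a ubiquitin ligase that works at the proteasome, had 572, 577 and 578, an unusually tight group, against 590 to 1634. RUP1, which acts with the ubiquitin ligase Rsp5, had 1384, 1270 and 1341 against 1445 to 2248, and CEF1, a splicing factor, 758, 743 and 784 against 788 to 1172. REE1, named for a role in the control of the enolase ENO1, had 369, 454 and 495 against 515 to 6520. In REE1, as in LEU4 and HUL5, replicate 3 of the strain labelled oe SSC1 and replicates 2 of oe EGD2 and oe TCP1 stood far above the other 5 libraries. The remaining 2 of the 12 genes had means of fewer than 20 counts.

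Set against each strain singly, oe LHS1 differed past the threshold by LHS1 in all 3 comparisons, by HIP1 against the libraries labelled oe SSC1 and by TCP1 against oe TCP1. Against the libraries labelled oe SSC1, 2 of 6592 genes passed (0.0303%), LHS1 (log2 difference 4.64, adjusted p 0.00163) and HIP1 (-3.95, adjusted p 0.00218). HIP1, the histidine permease on chromosome VII, had 1564, 2529 and 2732 normalized counts in oe LHS1 and 31570, 46307 and 27237 in replicates 1 to 3 labelled oe SSC1, 15.4-fold higher on average. SSC1 itself had 31699, 32390 and 30773 in oe LHS1, and 30045, 82518 and 11336 under its own label. The transcript that names that strain was thus higher than in oe LHS1 in only 1 of its 3 libraries, which is why they are called by their label here, and the log2 difference was 0.06 ± 0.66 (SE, adjusted p 0.993).

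Against oe TCP1, 2 of 6592 genes passed (0.0303%), LHS1 (4.69, adjusted p 0.000984) and TCP1 (-3.73, adjusted p 0.000984). TCP1 had 1824, 2522 and 2577 in oe LHS1 and 22042, 47002 and 26906 in oe TCP1, so the groups did not overlap and the means differed 13.9-fold. Against oe EGD2, 1 of 6592 genes passed (0.0152%), LHS1 (4.65, adjusted p 0.00458). This call was lost (0 genes) with edgeR, with a replicate block, without the libraries labelled oe SSC1 and without oe EGD2 replicate 2. EGD2 had 8708, 14664 and 13122 in oe LHS1 and 24039 and 17746 in oe EGD2, with a log2 difference of -0.80 ± 0.48 (SE, adjusted p 0.498). The 2 oe EGD2 values were the highest of the 11, although oe TCP1 replicate 3 (16374) came close. The 3 comparisons share the oe LHS1 libraries and are not independent of each other.

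The iron regulon was the list with the most members at an unadjusted p under 0.05 among those of nutrient uptake, 8 of 26 (30.8%), all lower, beside 1.29% over all genes. None passed the adjusted threshold. When iron is scarce, the activator Aft1 raises genes for iron uptake and for sparing iron in the cell. Of the list, 25 of 26 members had a log2 difference below 0 and the median was -0.62. It was -0.85 without oe LHS1 replicate 1 and -0.78 without the libraries labelled oe SSC1. Set against the other libraries of its own replicate number, the median was -0.39 for replicate 1, -0.78 for replicate 2 and -0.66 for replicate 3, so replicate 1 lay on the same side.

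FIT2, a cell wall mannoprotein that retains siderophores, the carriers of ferric iron, had the largest difference of the 8. It had 636, 290 and 295 normalized counts in oe LHS1. It had 1062, 334 and 4429 in replicates 1 to 3 labelled oe SSC1, 5666 and 5329 in oe EGD2, and 3256, 6297 and 202 in oe TCP1. Replicate 3 of oe TCP1 was the lowest of all and replicate 2 of the strain labelled oe SSC1 lay among the oe LHS1 values, so the groups overlapped at 2 libraries (log2 difference -2.52 ± 1.01, SE, unadjusted p 0.0311). TIS11, also called CTH2, which marks mRNAs of iron-using proteins for decay, had 702, 295 and 271 against 295 to 2647. SIT1, a siderophore transporter, had 2886, 1390 and 1444 against 1694 to 7557, and ARN2, another, 1043, 793 and 754 against 744 to 3080. FRE3, a ferric reductase, had 289, 156 and 129 against 172 to 754. In TIS11, SIT1 and FRE3 replicates 2 and 3 of oe LHS1 stood at or below the lowest other library, oe TCP1 replicate 3, and replicate 1 in the lower part of the range.

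ISU1 and ISU2, scaffolds on which iron-sulphur clusters are built, had 2321, 1286 and 1194 (ISU1) and 510, 437 and 293 (ISU2) in oe LHS1, against 1360 to 4207 and 462 to 1092. FTH1, an iron carrier of the vacuole, had 1424, 1439 and 1315 against 1329 to 2655, and its 3 values were close together. The high-affinity oxidase FET3 did not stand apart, with 6331, 5334 and 5439 against 4468 to 27703. The mRNA of AFT1 had 1705, 1267 and 1404 against 1468 to 1967. Of the 26 members, 8 had replicates 2 and 3 below all 8 other libraries, and none had all 3. The median by strain was -0.39 against the libraries labelled oe SSC1, -1.03 against oe EGD2 and -0.57 against oe TCP1. The centred list medians of oe LHS1 were -0.19, -0.57 and -0.63, and those of replicates 1 and 2 of the strain labelled oe SSC1 (-0.33 and -0.28) and of oe TCP1 replicate 3 (-0.47) lay between them.

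The letters TGCACCC, the core of the site known for Aft1, occur on either strand in the 500 bases upstream of 139 of 5989 genes (2.32%) and of 21 of the 26 members of the list. The stretches upstream of FIT2, TIS11, SIT1 and ISU1, of which the values are given above and in the plot of iron regulon genes, are shown with the matches in capitals. FIT2 holds 4 of them, TIS11 2, and SIT1 and ISU1 1 each, and the match reads GGGTGCA where it lies on the opposite strand.
FIT2, chrXV:1059175-1059431, plus strand: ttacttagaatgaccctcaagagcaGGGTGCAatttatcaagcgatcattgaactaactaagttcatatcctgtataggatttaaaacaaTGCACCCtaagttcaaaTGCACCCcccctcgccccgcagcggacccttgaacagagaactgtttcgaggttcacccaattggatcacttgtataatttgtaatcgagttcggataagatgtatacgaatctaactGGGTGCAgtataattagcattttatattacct
TIS11, chrXII:416800-416932, minus strand: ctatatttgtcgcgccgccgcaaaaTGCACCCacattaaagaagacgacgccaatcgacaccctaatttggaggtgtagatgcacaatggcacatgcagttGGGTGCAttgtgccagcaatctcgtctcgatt
SIT1, chrV:27444-27500, plus strand: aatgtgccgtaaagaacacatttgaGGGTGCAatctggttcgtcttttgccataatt
ISU1, chrXVI:297276-297332, plus strand: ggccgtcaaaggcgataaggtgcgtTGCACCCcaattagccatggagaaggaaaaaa
ISU2 and FTH1, which had unadjusted p-values of 0.0201 and 0.0458, hold no such match in this window.

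**Figure D4:**
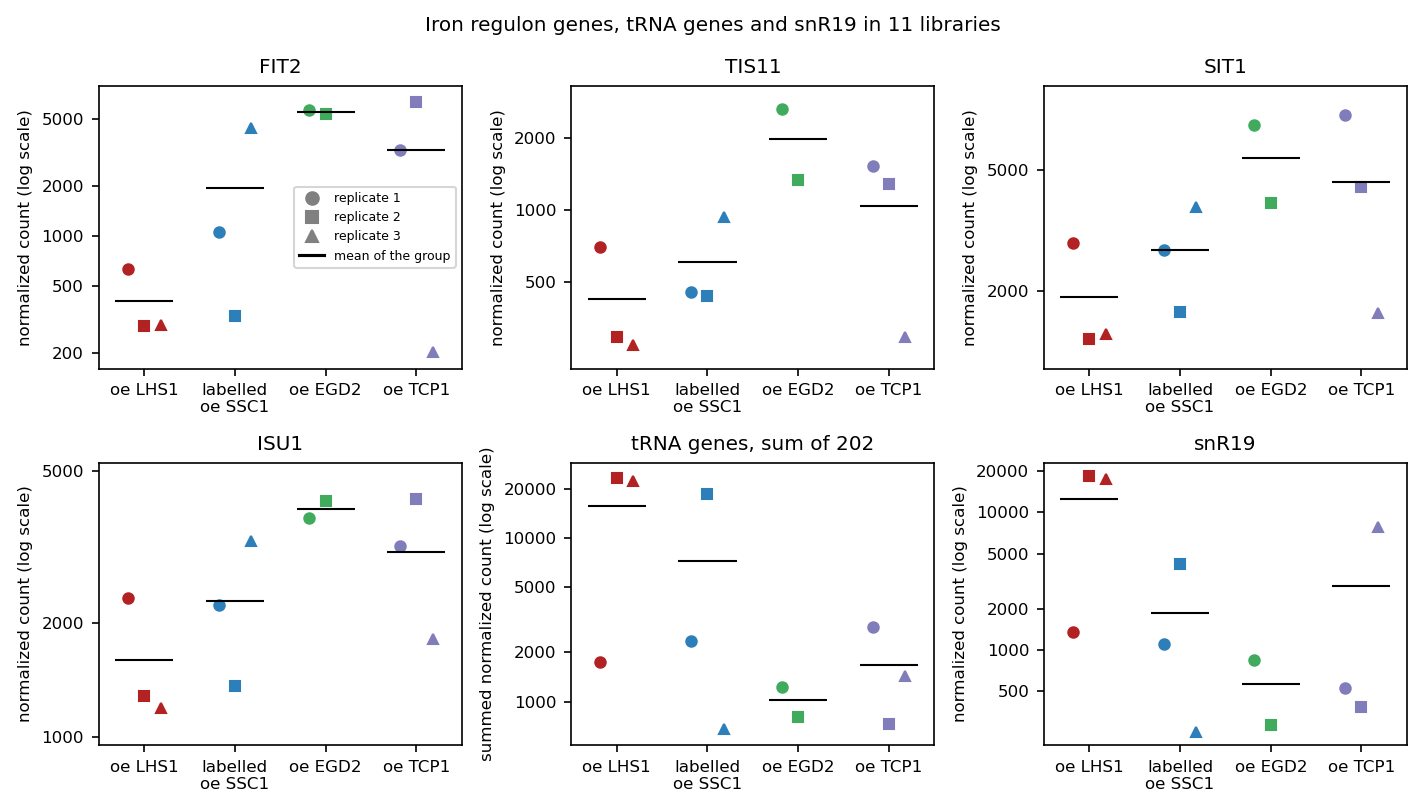
Normalized counts on a log axis for 4 iron regulon genes, the sum over 202 tRNA genes and the spliceosomal RNA snR19, with 1 point per library, shaped by replicate number, and a bar at the mean of each group. The iron genes are low in oe LHS1, in oe TCP1 replicate 3 and in replicate 2 of the strain labelled oe SSC1. Replicate 1 of that strain lies below oe LHS1 replicate 1 for TIS11, SIT1 and ISU1, and above it for FIT2. The tRNA sum is 23226 and 22267 in oe LHS1 replicates 2 and 3. It is 18565 in replicate 2 of the strain labelled oe SSC1, and at most 2863 in the 8 others.

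Sulphur assimilation and the phosphate regulon were further nutrient lists with most values below the other strains. In the phosphate list 18 of 21 members lay below 0, with a median of -0.54 (-0.56 without oe LHS1 replicate 1), and none had an unadjusted p under 0.05. PHO89, a phosphate transporter, had 1481, 240 and 182 normalized counts in oe LHS1 and 186 to 4272 in the others, so replicate 1 lay inside the range and only replicate 3 below it. Of the 28 sulphur genes, 26 lay below 0, with a median of -0.67, and 3 (10.7%) had an unadjusted p under 0.05, all lower, beside 1.29% over all genes. SUL2, a sulphate permease, had 953, 549 and 528 normalized counts in oe LHS1 and 553 to 2862 in the others. MET10, a subunit of sulphite reductase, had 2464, 957 and 1010 against 1134 to 5194, and STR3, a cystathionine beta-lyase, 468, 143 and 131 against 176 to 1483. In all 3 genes replicates 2 and 3 lay below every other library and replicate 1 within the range. Without replicate 1 the median was -0.999, and 17 of the 28 were then lower at an unadjusted p under 0.05, in a fit where 6.49% of all genes were lower and 5.78% higher at that threshold. Replicate 1 set against the other replicate 1 libraries had a median of 0.08, so the lower values of this list belonged to replicates 2 and 3. The centred sulphur medians were 0.30, -0.79 and -0.78 in oe LHS1 replicates 1 to 3, and -0.91 in oe TCP1 replicate 3. Those of the phosphate list were -0.21, -0.43 and -0.48 in oe LHS1, and -0.53 in oe TCP1 replicate 3. For both lists that library was thus lower than every oe LHS1 library.

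The general stress genes, targets of Msn2 and Msn4, had the lowest median of all lists, -1.75, with 26 of 26 below 0, and only SIP18 at an unadjusted p under 0.05. Without replicate 1 the median was -2.76, and 18 of the 26 were lower at that threshold, beside 6.49% of all genes in that fit. HSP12, a small membrane-protecting heat shock protein, had 19097, 1225 and 1155 normalized counts in oe LHS1 replicates 1 to 3, 33497 to 70964 in 5 of the others, 23544 in replicate 1 of the strain labelled oe SSC1, 3768 in its replicate 2 and 1233 in oe TCP1 replicate 3. SIP18, a small protein induced by osmotic stress, had 751, 134 and 142 against 139 to 2406. Replicate 1 of oe LHS1 thus resembled most of the other libraries in these genes, and replicates 2 and 3 resembled oe TCP1 replicate 3. The list median was -2.73 for replicate 2 minus replicate 1 and -2.88 for replicate 3 minus replicate 1. Trehalose and glycogen genes followed the same libraries, with a median of -1.15, or -1.72 without replicate 1.

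Ribosome biogenesis had the highest median of the lists of protein genes, 0.69, with 67 of 67 members above 0 and none at an unadjusted p under 0.05, and the median was 0.99 without replicate 1. UTP20, a part of the machinery that processes the small subunit RNA, had 2812, 4822 and 5140 normalized counts in oe LHS1 and 1332 to 5538 in the others. RLP7, needed for the large subunit, had 3203, 5243 and 5735 against 1362 to 9889. Cytosolic ribosomal proteins had a median of 0.47, or 0.74 without replicate 1, with 129 of 132 above 0. The summed count of these 132 genes was 902382 in oe LHS1 replicate 1, 1691260 and 1607710 in replicates 2 and 3, and 627162 to 2244770 in the others, the highest in oe TCP1 replicate 3. Many of these genes are near-identical pairs whose reads can be split by the counting, so single members are uncertain. Replicate 1 set against the other replicate 1 libraries had a median of -0.20 for ribosomal proteins and 0.13 for ribosome biogenesis.

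**Figure D5:**
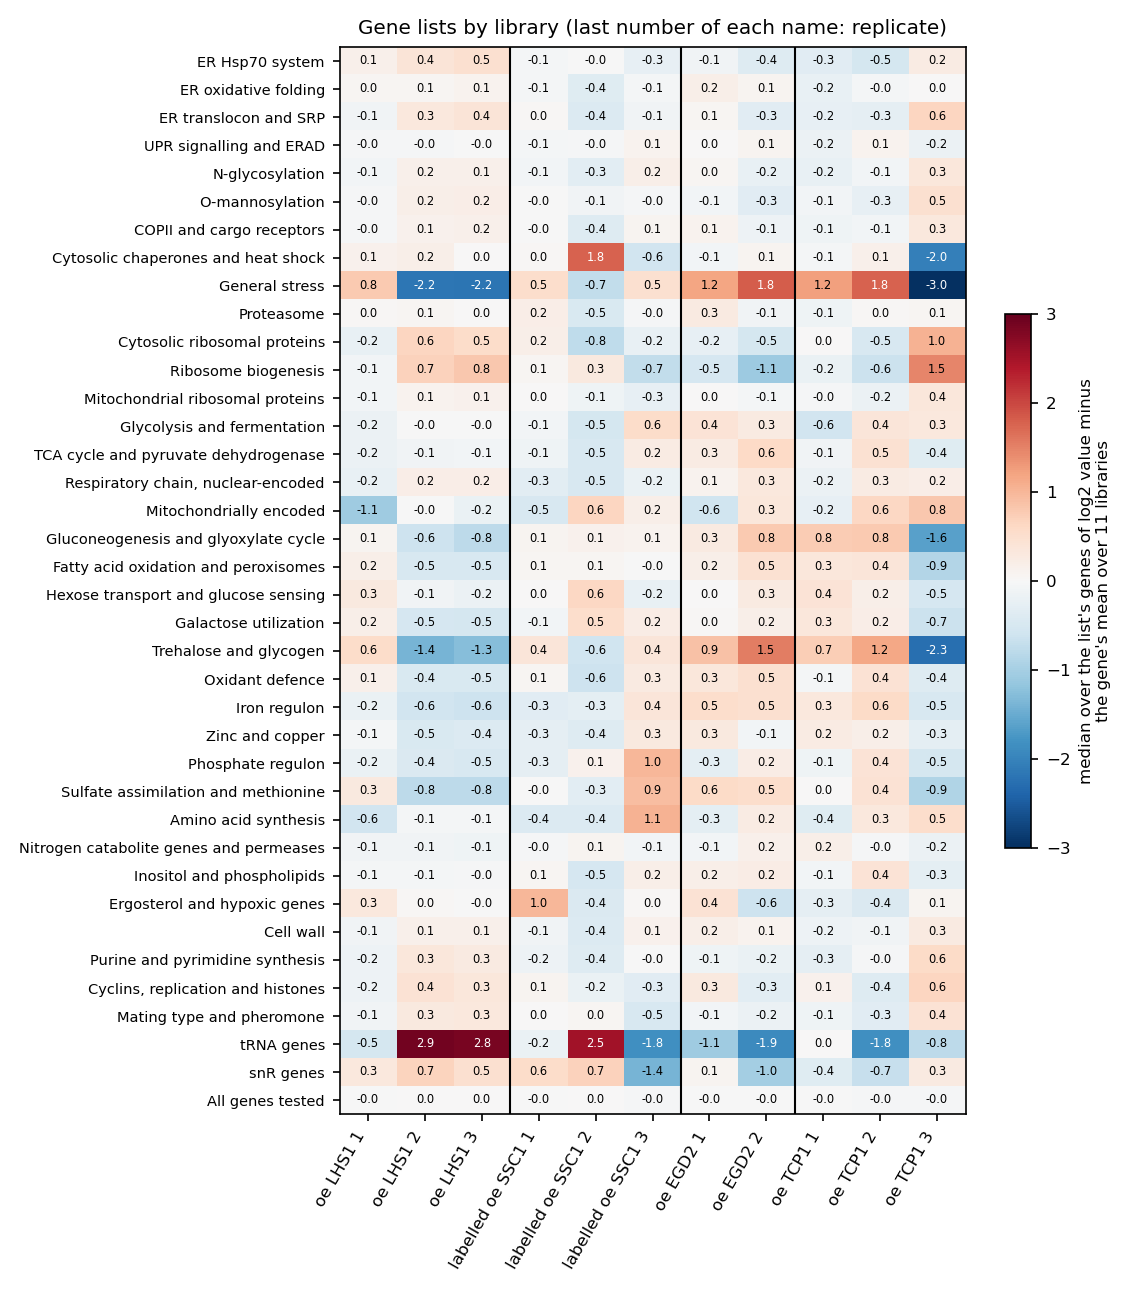
Rows are the 35 gene lists, the tRNA genes, the snR genes and all genes tested, and columns are the 11 libraries grouped by strain. Each cell is the median over the row's genes of the log2 value minus the gene's mean over 11 libraries. Replicates 2 and 3 of oe LHS1 share low general stress values (-2.16 and -2.18) that replicate 1 lacks (0.78), and oe TCP1 replicate 3 is lower still (-2.98). The tRNA row is high in these 2 libraries and in replicate 2 of the strain labelled oe SSC1. That row holds genes that passed the filter only through oe LHS1.

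Carbon metabolism, a subject of the study, gave small list medians for the central pathways, although single members lay far from them. The log2 differences ran from -2.17 (HXK1) to 0.64 in glycolysis and fermentation and from -0.97 to 0.50 in the TCA cycle. In the respiratory chain they ran from -1.74 (CYC7) to 0.67. The list of gluconeogenesis and the glyoxylate cycle had a larger median, also with members that differed widely. Glycolysis and fermentation had a median log2 difference of -0.15 with 13 of 23 below 0, the TCA cycle -0.25 with 18 of 21 below 0, and the nuclear-encoded respiratory chain 0.06 with 23 of 36 above 0. Without replicate 1 these medians were -0.07, -0.18 and 0.19. The respiratory chain median was -0.07 without the libraries labelled oe SSC1, and that of glycolysis was 0.01 without replicate 3 of that strain, so both directions depended on those libraries. None of the members of the first 2 had an unadjusted p under 0.05. In the third it was CYC1, the main cytochrome c, with 764, 1260 and 1207 normalized counts in oe LHS1 and 522 to 1450 in the others. Gluconeogenesis and the glyoxylate cycle had a median of -0.64 with 21 of 23 below 0, and 4 (17.4%) were lower at an unadjusted p under 0.05, beside 1.29% over all genes. PCK1, the phosphoenolpyruvate carboxykinase, had 291, 217 and 154 against 214 to 1071, YAT1, a carnitine acetyltransferase, 562, 392 and 172 against 202 to 3684, and CRC1, the mitochondrial carrier of acetylcarnitine, 380, 166 and 156 against 113 to 2160. For these 3 genes all 3 oe LHS1 libraries were below the median of the others. ICL1, MLS1, ACS1 and FBP1 had log2 differences of -0.35, -0.44, -0.89 and 0.07, none at an unadjusted p under 0.05 (limma). FBP1 and ACS1 in oe LHS1 replicate 1, at 755 and 4997 normalized counts, were the highest of the 11 libraries. Replicates 2 and 3 lay within the range of the others for both. The list median was -0.89 without replicate 1, and -0.09 for replicate 1 against the other replicate 1 libraries. Centred on each gene's mean over 11 libraries, it was 0.08, -0.62 and -0.78 in oe LHS1 replicates 1 to 3. In oe TCP1 replicate 3 it was lower than in all of these, at -1.63.

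The galactose genes were at low counts in oe LHS1 as in the others. GAL1, the galactokinase that galactose induces strongly, had 326, 321 and 318 normalized counts in oe LHS1 and 237 to 836 in the others. GAL7 and GAL10 had 248, 89 and 68 (GAL7) and 476, 245 and 279 (GAL10) against 42 to 417 and 167 to 733. GAL1 was thus at less than a median gene's count in every oe LHS1 library, where that median was 890, 830 and 839.

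Short structured RNAs were gathered after their values had been seen. Of 299 tRNA genes in the table, 202 had a mean of at least 5 over the 11 libraries, 167 had one over the 8 others alone, and 30 had a mean of at least 50. Because at least 35 passed the filter only through oe LHS1, no count or median of tests is given for them. With a mean of at least 50, the genes of all kinds that were higher at an unadjusted p under 0.05 numbered 52 in place of 158. The summed normalized count of these 202 tRNA genes was 1746, 23226 and 22267 in oe LHS1 replicates 1 to 3. It was 2356, 18565 and 677 in replicates 1 to 3 labelled oe SSC1, 1230 and 808 in oe EGD2, and 2863, 731 and 1439 in oe TCP1. Replicates 2 and 3 of oe LHS1 and replicate 2 of the strain labelled oe SSC1 were high, and oe LHS1 replicate 1 was among the low libraries. SCR1, the RNA of the SRP, had 4646, 106421 and 61290 in oe LHS1 and 428 to 92806 in the others, the highest of which was again replicate 2 of the strain labelled oe SSC1. RPR1, the RNA of RNase P, had 1098, 19709 and 14031 against 100 to 9758, and snR19, the U1 spliceosomal RNA, 1352, 18458 and 17575 against 255 to 7880. In these RNAs replicate 1 lay near the other replicate 1 libraries. Such RNAs are poorly captured by protocols that select polyadenylated RNA, the sources used here do not describe the selection step, and the part of library preparation in these values was not tested.

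Without oe LHS1 replicate 1, more genes lay outside the range of the others, but no further gene passed the adjusted threshold. Replicates 2 and 3 lay above all 8 other libraries in 239 of 6592 genes (3.63%) and below all 8 in 296 (4.49%). The 239 include tRNA genes that passed the filter only through the oe LHS1 libraries, so the filter set part of this share. The lists with the most members below were sulphur assimilation (10 of 28), the iron regulon (8 of 26), amino acid synthesis (7 of 54) and nitrogen catabolite genes (6 of 39). PUT1, the proline oxidase and a nitrogen catabolite gene, had 173 and 170 normalized counts in replicates 2 and 3, 541 in replicate 1 and 290 to 1445 in the others. PEX5, the import receptor of peroxisomes, had 837 and 895 in replicates 2 and 3, 1298 in replicate 1 and 1154 to 2170 in the others. Limma gave 809 genes at an unadjusted p under 0.05 without replicate 1, against 243 with it, 12 without replicate 2 and 8 without replicate 3. In each of the 4 fits LHS1 was the only gene past the adjusted threshold, with a log2 difference of 5.10 without replicate 1.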

How the data were processed

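RNASeq was measured in 14 samples per the labels, and the deposited table of gene-level signal holds 11 of them. The authors aligned the reads to sacCer3 (STAR 2.3.0e), assigned them to genes regardless of strand (HTSeq 0.6.0), removed outlier replicates and divided by DESeq2 size factors, so the deposited signal is a normalized count. Reads from overlapping or antisense genes cannot be told apart. Rescaled, 100% of values were whole reads within 0.01. Of 7122 genes, 6045 matched the R64 assembly by systematic name, and 4 lines were emptied for this work.

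The main test was limma 3.58.1 in R 4.3.3 with a mean-variance trend, on log2(normalized count + 1), for genes averaging 5 or more. All 4 strains entered the fit, and oe LHS1 was compared with the average of the means of the 3 remaining strains and with each strain, at a Benjamini-Hochberg adjusted p under 0.05. The pseudocount understates differences of low genes. Alternatives were edgeR 4.0.16 and DESeq2 1.42.0 on recovered reads, other pseudocounts (0.5 and 8), filters and scalings, a replicate block and leaving out libraries. The fits were tested on simulated data. The 35 gene lists were described by counts and medians, without set tests.

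The groups, lists and members were chosen with earlier results of these data known. Genes named by rule are LHS1, KAR2, SIL1, HAC1, URA3 and the chaperone genes of the other strains, those past the threshold, those with all 3 oe LHS1 libraries outside the range of the other 8 and a mean of at least 20, up to 3 list members with the largest absolute moderated t, and list members in which oe LHS1 replicate 1 lay farthest from replicates 2 and 3. The branched-chain set, the structured RNAs, the galactose genes, the neighbours of LHS1 and further list members were chosen after their values were seen.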

Additional observations from a re-analysis of the deposited data

How the results depend on the processing

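Against the other strains, LHS1 was called, and was the only gene called, in every alternative except 2, which combined a replicate block with leaving out oe LHS1 replicate 2 or 3 and were chosen after seeing the data (0 called genes, also among the gene lists, and 1 without replicate 1). Its log2 difference ranged from 4.27 to 5.17 over all 26 alternatives. The replicate block alone gave 1 call against the other strains, 2 against the libraries labelled oe SSC1, 2 against oe TCP1 and 0 against oe EGD2, and the block in edgeR gave 1 against the other strains and 0 in each pairwise comparison. With the block and an oe LHS1 library left out, each pairwise comparison gave 0 to 1 calls. The labels tie a replicate number to no shared culture or day. Of 15 same-numbered pairs of libraries, 8 had deviations correlated over 0.1 (range -0.58 to 0.64), so not every pair did, and the numbers were not taken to pair the samples. Of the 11 libraries, 8 correlated best with one of their own number. It is a hint from the data, not the design, that numbers share something, which was not tested. These deviations were taken from each strain's mean, which ties the libraries of a strain to each other, so the 8 matches are not independent. Against oe EGD2 the count was 1, and 0 with edgeR, without the libraries labelled oe SSC1, and without oe EGD2 replicate 2 (0 to 1 over the libraries left out). The cause was not tested. Genes outside the range numbered 12, and 23 to 535 when an oe LHS1 library was left out (535 without replicate 1), since fewer samples then have to lie outside. The exact permutation p of LHS1 was then 0.0444, the smallest possible with 2 libraries. At an unadjusted p under 0.05, limma gave 243 genes, 1228 without oe TCP1 replicate 3 and 70 without oe EGD2 replicate 2, and the cause was not tested. Scaling to equal totals shifted the median of all genes to 0.15 against oe EGD2 and 0.10 against oe TCP1. The sign of the median was the same in all 26 alternatives for the ER Hsp70, iron, sulphur, general stress and ribosome biogenesis lists. The translocon, N-glycosylation, COPII and ribosomal protein medians each turned negative in 1, the block without oe LHS1 replicate 2. The respiratory chain median was -0.07 without the libraries labelled oe SSC1, and that of glycolysis 0.01 without oe SSC1 replicate 3.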

Other observations

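In the list of oxidant defence, 23 of 27 members had a log2 difference below 0, with a median of -0.43, or -0.64 without oe LHS1 replicate 1. GPX1, a phospholipid hydroperoxide peroxidase, had 467, 143 and 124 normalized counts in oe LHS1 replicates 1 to 3 and 171 to 2431 in the others, and TSA2, a thioredoxin peroxidase, 922, 183 and 154 against 214 to 2175. In both genes replicates 2 and 3 lay below all 8 other libraries. Genes of fatty acid oxidation and of peroxisomes had 17 of 20 members below 0, as did 48.8% of all genes, with a median of -0.41 (-0.61 without replicate 1). The centred medians of oe LHS1 replicates 1 to 3 were 0.14, -0.45 and -0.47 for oxidant defence and 0.19, -0.49 and -0.49 for fatty acid oxidation. Replicate 2 of the strain labelled oe SSC1 was lower for oxidant defence (-0.63), and oe TCP1 replicate 3 for fatty acid oxidation (-0.88).

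Among metals other than iron, CRS5, a copper metallothionein, had 359, 194 and 172 normalized counts against 210 to 1048 (log2 difference -1.28 ± 0.40, SE, unadjusted p 0.0098, adjusted p 0.677), and COT1, a vacuolar zinc and cobalt carrier, 1181, 876 and 1022 against 1121 to 2389. Replicate 1 of oe LHS1 lay inside the range for both. The mitochondrially encoded genes were at few counts, COX1, a cytochrome c oxidase subunit, with 9.78, 27.7 and 27.2 in oe LHS1 against 19.3 to 61.6, and replicate 1 held the lowest COX1 value of the 11 libraries. The cytosolic chaperone list had a median of 0.18 that changed sign in 5 of 26 alternatives. HSP104, the disaggregase, had 96615, 44297 and 42903 against 4918 to 205625, and BTN2, which sorts misfolded proteins, 53721, 49287 and 48763 against 2584 to 194626. The BTN2 values of the 3 oe LHS1 libraries differed little from each other, unlike HSP104, and both groups overlapped with the others.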
